A study of Mus musculus with 36 samples.

Results

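Ccl28 and 9 other chemokine genes were followed in the kidneys of cadmium-treated and untreated mice. The set of 10 was given by name (Ccl28, Ccl2, Ccl5, Cxcl1, Cxcl9, Cxcl10, Cxcl12, Cxcl16, Cx3cl1 and Cxcl14) and matched by Ensembl identifier among 55536 annotated genes, and all 10 were among the 18180 genes with enough reads to be tested. Ccl28 (chr13:119623819-119654359, plus strand, GRCm38) was chosen by its measured level, which fell with cadmium in one genotype and was low in the other, so those differences are given as a description and without a test. No member was too low to read by the rule used here (dropped by the filter on low counts, or a median count under 10 in all 6 groups). Ccl2 came closest, with a median of 9 counts in its lowest group, the untreated b6j mice, and 0 counts in 1 of those libraries.

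Chemokines are small secreted proteins that draw leukocytes along a gradient through G protein-coupled receptors. Some, such as Ccl2, Cxcl1 and Cxcl10, are induced in injured or inflamed tubules and in infiltrating cells by NF-kB and interferon signalling. Others, such as Cxcl12, Cx3cl1 and Cxcl14, are made constitutively by resident stromal, endothelial or epithelial cells. Ccl28 is a mucosal chemokine of epithelial cells that attracts IgA-secreting plasma cells through Ccr10.

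The mice were ob/ob animals (ob), which lack functional leptin and become obese, and normal C57BL/6 animals (b6j). The labels give the strain of both as C57BL/6. Each genotype had an untreated group, a group given 0.5 mg/kg CdCl2 and a group given 2 mg/kg CdCl2, with 6 libraries per group and 36 in all. Sex, age, route and duration are not given in the sources used here. Replicates are numbered separately in each group and nothing says that they came from separate animals, so the p-values measure the spread between these libraries.

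Each library held 26783936 to 37244058 counts, and 3 counts were worth 0.0851 to 0.112 CPM (counts-per-million units, scaled between libraries). Replicate 5 of the ob group at 2 mg/kg stood apart from the other 35 libraries. Its proximal tubule marker genes summed to 955 CPM, against a group median of 10100 CPM, and its tubular injury markers to 16400 CPM, against 3020 CPM. T and NK cell markers summed to 0.654 CPM there, and its Slc34a1, the proximal tubule phosphate transporter, stood at 16.6 CPM against 3020 to 4450 CPM in the other 5 libraries of the group. The members' calls in this group and the counts of each gene list at 2 mg/kg below are therefore given with and without it. Its spread enters the common fit, so counts in other groups can also shift without it. In whole kidney, fewer cells of a type and less RNA per cell cannot be told apart.

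The promoters of the 4 members with the clearest contrast in behaviour were picked with their values known and are shown to compare their sequence, as the 250 bases before the RefSeq start site in GRCm38.p6: Ccl28, the member with the largest fall in b6j, Cxcl1 and Cxcl10, called higher in both genotypes with a doubt for Cxcl1 in b6j that is stated below, and Cxcl9, the close relative of Cxcl10 that was not called. They lie at chr13:119623569-119623818 (plus strand), chr5:90890995-90891244 (plus), chr5:92348890-92349139 (minus) and chr5:92328080-92328329 (minus). Promoters were matched for 7 of the 10 members. Capitals mark matches, on either strand, to GGGA and CC parted by any 4 bases (kappaB-like, after the sites NF-kB binds), to GAAA and GAAA parted by any 2 bases (like an interferon-stimulated response element), or to TGANTCA (AP-1-like).
Ccl28: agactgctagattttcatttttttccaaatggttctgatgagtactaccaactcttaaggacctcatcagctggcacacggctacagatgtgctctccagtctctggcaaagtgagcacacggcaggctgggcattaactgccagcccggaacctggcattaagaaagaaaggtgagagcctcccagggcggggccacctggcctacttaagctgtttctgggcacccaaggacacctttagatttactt
Cxcl1: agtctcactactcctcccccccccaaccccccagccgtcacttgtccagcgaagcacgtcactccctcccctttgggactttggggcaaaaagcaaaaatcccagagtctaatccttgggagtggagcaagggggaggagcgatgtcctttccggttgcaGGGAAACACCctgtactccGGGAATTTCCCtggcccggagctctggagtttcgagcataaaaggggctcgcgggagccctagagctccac
Cxcl10: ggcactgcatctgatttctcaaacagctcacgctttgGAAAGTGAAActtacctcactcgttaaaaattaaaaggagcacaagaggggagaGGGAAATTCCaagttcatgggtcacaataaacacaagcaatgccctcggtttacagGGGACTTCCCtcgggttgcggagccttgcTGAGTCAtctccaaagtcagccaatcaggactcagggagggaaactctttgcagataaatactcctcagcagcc
Cxcl9: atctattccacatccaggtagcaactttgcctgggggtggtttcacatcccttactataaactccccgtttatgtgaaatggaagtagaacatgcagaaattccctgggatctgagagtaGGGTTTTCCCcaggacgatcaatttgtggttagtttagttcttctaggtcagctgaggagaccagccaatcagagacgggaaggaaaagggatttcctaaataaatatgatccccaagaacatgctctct

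The kappaB-like letters were in 3 of the 7 member promoters, those of Cxcl1, Cxcl9 and Cxcl10, beside 17.6% of 32851 promoters of the same length. In Cxcl1 they began 90 and 71 bases before the start, the second overlapping its own reverse-strand match, and in Cxcl10 they began 159 and 103 bases before it. The interferon-type letters were in 2 of the 7, Cxcl10 and Cxcl14, beside 2.98% of promoters. The AP-1-type letters were in 1 of the 7, Cxcl10, beside 6.75%. None of the 3 sets of letters was in the Ccl28 window.

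Ccl28 fell in b6j kidneys step by step with dose and was low in every ob group. In untreated b6j mice its level was 18.9, 25.6, 29.1, 32.8, 41.8 and 70.3 CPM. At 0.5 mg/kg it was 7.18, 10.4, 12.1, 12.9, 14.5 and 16.0 CPM, and at 2 mg/kg it was 2.66, 4.02, 4.89, 5.71, 6.0 and 6.71 CPM. The 3 b6j groups did not overlap. The mean was 36.4 ± 18.3 CPM (SD, n = 6) in untreated b6j kidneys, 12.2 ± 3.12 at 0.5 mg/kg and 5.0 ± 1.48 at 2 mg/kg. The fitted log2 difference from control was -1.58 (SE 0.27) at 0.5 mg/kg and -2.86 (SE 0.29) at 2 mg/kg, a fall of 2.99-fold and 7.27-fold. Without b6j control replicate 3, the highest library at 70.3 CPM, these differences were -1.28 and -2.57.

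In ob kidneys Ccl28 stayed between 1.08 and 3.68 CPM in all 18 libraries. Untreated ob libraries held 1.19, 1.61, 2.28, 2.72, 2.75 and 3.29 CPM. Those given 0.5 mg/kg held 1.33, 1.34, 1.72, 1.96, 2.23 and 3.68 CPM, and those given 2 mg/kg held 1.08, 1.44, 1.9, 2.15, 2.73 and 2.87 CPM. The 3 ob groups overlapped throughout. The fitted log2 difference from untreated was -0.18 (SE 0.31) at 0.5 mg/kg and -0.19 (SE 0.31) at 2 mg/kg, and the latter was -0.3 without replicate 5. The low ob level was part of how Ccl28 was chosen, so these too are given without a test, and they do not show that the groups are equal. Even the lowest ob library had 38 reads of Ccl28, so the low level was measured and was not at the floor.

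The genotype gap narrowed as b6j levels fell. Untreated ob kidneys were 15.8-fold below untreated b6j kidneys (log2 difference -3.98, SE 0.31), and at 0.5 mg/kg the gap was 5.97-fold (-2.58, SE 0.3). At 2 mg/kg it was 2.47-fold (-1.31, SE 0.3), with 4 of the 6 ob libraries below every b6j library and the groups overlapping. In order of mean level the 6 groups ran from untreated b6j through b6j at 0.5 mg/kg and b6j at 2 mg/kg to the 3 ob groups. The last 3 did not differ beyond their spread.

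**Figure D1:**
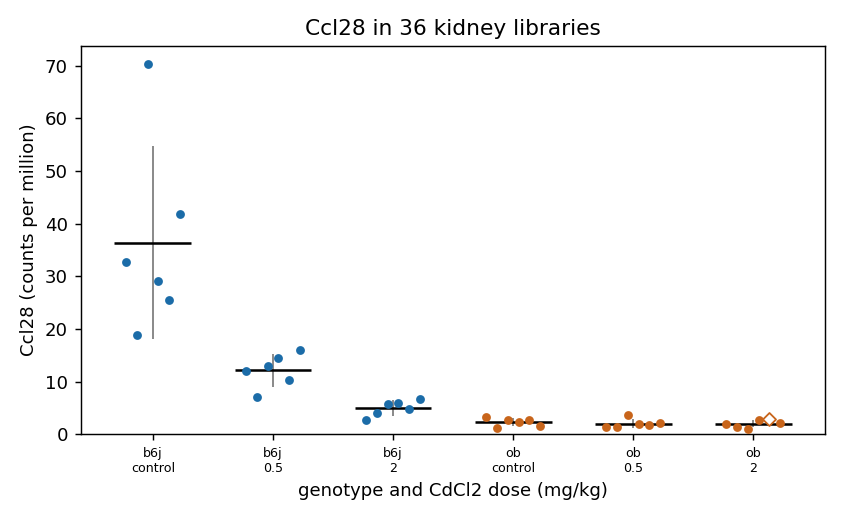
Ccl28 in CPM (vertical axis) in each of 36 kidney libraries, by genotype and CdCl2 dose; black lines are group means, grey bars 1 SD, and the open diamond is replicate 5 of the ob group at 2 mg/kg. The b6j groups step down from 18.9-70.3 to 2.66-6.71 CPM without overlap, and all ob libraries lie between 1.08 and 3.68 CPM.

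The genes most like Ccl28 over the 36 libraries, by Pearson r of log2 CPM (14099 genes averaging 1 CPM or more were compared), were Chst11 (r = 0.919), Cyp4a12a (0.907), Reep5 (0.903), Mtor (0.901) and Galns (0.894). These correlations follow the 6 group means, which ran in a broadly like order in all 5 genes, but with smaller steps than Ccl28 within b6j and between the untreated genotypes. Reep5 averaged 161 CPM in untreated b6j kidneys, 127 in b6j at 2 mg/kg and 97.5 in untreated ob kidneys. Cyp4a12a, an androgen-dependent fatty acid hydroxylase of the proximal tubule, averaged 271 CPM in untreated b6j kidneys, 190 at 0.5 mg/kg and 79.0 at 2 mg/kg, and 28.8, 47.9 and 22.7 CPM in the 3 ob groups. After the group means were removed, the most alike were Rdh18-ps (r = 0.653), Ctxn3 (0.636), Polr3c (0.628), Setdb2 (0.618) and Tmem168 (0.609). No gene was on both lists.

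Most androgen-responsive genes and some proximal tubule markers were lower, as Ccl28 was, in untreated ob against b6j and in b6j at 2 mg/kg. The summed level of 6 proximal tubule markers had a median of 40600 CPM in untreated b6j kidneys, 34700 at 0.5 mg/kg and 23100 at 2 mg/kg, and 19000, 20800 and 10100 CPM in the ob groups. Most of that sum is Kap, an androgen-responsive kidney gene that is on both lists, at a mean of 28300 CPM in untreated b6j and 11000 CPM in untreated ob kidneys. Of the 6, edgeR called 0 in b6j at 0.5 mg/kg (median log2 0.06) and 2 lower, Kap and Slc22a6, both in b6j at 2 mg/kg (median -0.45) and in untreated ob against b6j (median -0.36). Slc5a12 and Slc5a2, sodium-coupled transporters, went the other way between the untreated genotypes, at 254 against 183 CPM and 452 against 348 CPM in ob and b6j, and neither was called. Without ob 2 mg/kg replicate 5, whose spread enters the common fit, 5 of the 6 were called lower in b6j at 2 mg/kg, and 4 lower and 2 higher in untreated ob against b6j. For 7 androgen-responsive genes, whose sum is also mostly Kap, the medians were 31200, 24700 and 16300 CPM in b6j and 10600, 11900 and 3930 CPM in ob. Mean Ccl28 in those ob groups was 2.31, 2.04 and 2.03 CPM. All 7 were called lower in untreated ob than in untreated b6j kidneys, 5 were called lower in b6j at 2 mg/kg and 0 at 0.5 mg/kg, the same without that replicate. Of all genes, 15.5%, 23.7% and 0.325% were called in these comparisons. Cyp7b1 (170, 190 and 197 CPM in the b6j groups) and Gusb (57.8, 48.1 and 62.5 CPM) were not lower at 2 mg/kg than in control. The part of either list in the Ccl28 difference was not tested.

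Igha, the IgA heavy chain constant region and a marker of the plasma cells that Ccl28 attracts, was also highest in untreated b6j kidneys. It stood at 12.0 to 22.2 CPM there, 3.87 to 8.5 CPM at 0.5 mg/kg and 3.58 to 7.54 CPM at 2 mg/kg. Ob libraries held 0.187 to 6.16 CPM. The fall in b6j at 2 mg/kg was called by edgeR (log2 -1.67, SE 0.37, adjusted p = 0.000833), and the difference at 0.5 mg/kg was -1.52 (adjusted p = 0.0566). Untreated ob kidneys were lower than untreated b6j (log2 -2.45, SE 0.38, adjusted p = 1.43e-05). Of the 6 B and plasma cell markers, Igha was the 1 called in b6j at 2 mg/kg (median of the list -0.27) and in untreated ob against b6j (median 0.11). Of all genes, 23.7% and 15.5% were called in these comparisons. Without ob 2 mg/kg replicate 5 the counts were 2 lower in b6j, and 1 higher and 1 lower between the untreated genotypes. Ighm averaged 15.6 CPM in untreated b6j kidneys and 21.7 CPM at 2 mg/kg, and Jchain, which joins IgA and IgM chains, averaged 4.97, 3.05 and 4.38 CPM in the 3 b6j groups. Ms4a1, a B cell surface marker, averaged 0.129 and 0.23 CPM in untreated b6j and at 2 mg/kg. Ccr10, the Ccl28 receptor, averaged 0.43 to 0.814 CPM in the 6 groups and was called neither in b6j nor in ob at either dose.

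Ccl2, the ligand that recruits Ccr2-bearing monocytes, rose in both genotypes at 2 mg/kg. In untreated b6j kidneys it was 0, 0.145, 0.17, 0.403, 0.439 and 0.528 CPM, at or near the floor of 3 counts in some libraries. At 2 mg/kg it was 1.31, 3.02, 3.49, 4.99, 4.99 and 5.35 CPM. Every treated library was above every control. The log2 difference was 3.76 (SE 0.59, edgeR adjusted p = 9.37e-06). In ob kidneys the untreated libraries held 0.193 to 0.592 CPM, and the 2 mg/kg libraries held 0.312, 5.04, 5.2, 5.6, 6.52 and 8.79 CPM. The lowest of these is replicate 5, within the range of the controls, and the other 5 were above every control. The log2 difference was 3.71 (SE 0.57, adjusted p = 3.68e-06), and 3.97 without that library. Because the controls of both genotypes held few counts, the size of both differences is uncertain. At 0.5 mg/kg the mean was 0.994 ± 0.537 CPM in b6j and 1.08 ± 0.607 CPM in ob, with log2 differences of 1.82 (adjusted p = 0.352) and 1.43 (adjusted p = 0.179). Neither was called. Without ob 2 mg/kg replicate 5, whose spread enters the common fit, the ob value passed (1.42, adjusted p = 0.0476).

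Cxcl1, a neutrophil attractant that signals through Cxcr2, rose in ob kidneys at 2 mg/kg. The untreated ob libraries held 0.886, 1.24, 1.28, 1.42, 1.77 and 2.06 CPM, and the treated ones 3.06, 3.71, 4.54, 6.38, 7.04 and 9.28 CPM. The groups did not overlap. The log2 difference was 1.97 (SE 0.34, edgeR adjusted p = 1.76e-05), and 1.79, still called, without replicate 5, the highest of them. In b6j it was 1.36 (SE 0.33, adjusted p = 0.00215), from 0.873, 1.54, 2.13, 2.3, 2.39 and 3.45 CPM in the controls to 2.95, 3.71, 5.52, 5.94, 6.5 and 8.11 CPM. Here the lowest treated library lay below the highest control. This b6j call is in doubt. It did not pass in a joined count table of the series, while the difference was larger on the reads outside that table. The columns of the joined table could be matched to libraries only through file names. That table is not used here, so neither outcome is backed by a value in this report.

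The b6j control levels of Cxcl1 are given here beside Cxcl3 and Cxcl5, neutrophil attractants of the same receptor. Cxcl3 was listed at 0 in untreated b6j replicates 1 and 2 and at 1.02 to 3.45 CPM in replicates 3 to 6. Cxcl5 followed the same division, at 0 in replicates 1 and 2 and 3.52 to 8.09 CPM in the other 4. Cxcl1 was 0.873 and 1.54 CPM in replicates 1 and 2 and 2.13 to 3.45 CPM in the other 4. Outside that group Cxcl3 exceeded 1 CPM in 2 libraries, b6j at 0.5 mg/kg replicate 5 (2.04 CPM) and ob at 2 mg/kg replicate 3 (1.48 CPM), which also had the highest Cxcl5 of their groups (4.54 and 4.2 CPM). Matched in that way, the joined table held fewer reads than the per-library files for some libraries. These were unevenly spread over the groups and mostly b6j, with untreated b6j replicates 3 to 6 among them. Nearly all reads of Cxcl3 and Cxcl5 lay in the part that both held, with a raised share of those of Cxcl1, Cxcl2 and Ppbp, another chemokine. The values of these genes, and their differences between groups, may therefore depend on which reads were counted. What separates the libraries was not tested. No fold is given for Cxcl3 or Cxcl5, because the 6 untreated ob libraries were at 0 for Cxcl3 and at 0 to 0.129 CPM for Cxcl5.

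**Figure D2:**
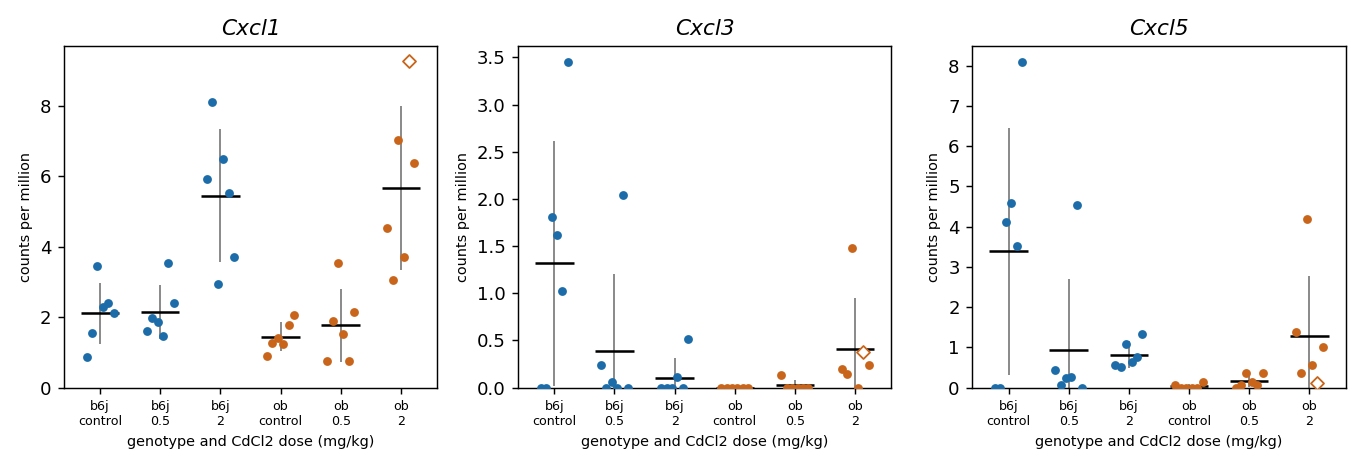
CPM of Cxcl1, Cxcl3 and Cxcl5 (vertical axes) in each library by genotype and CdCl2 dose, with group means (black lines), 1 SD (grey bars) and ob 2 mg/kg replicate 5 as an open diamond. Untreated b6j libraries split into 2 at 0 and 4 at 1.02-3.45 CPM for Cxcl3, and ob controls lie at 0.

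Cxcl10, an interferon-inducible ligand of Cxcr3, rose at 2 mg/kg in both genotypes. In b6j kidneys the controls were 2.62, 3.1, 3.51, 3.64, 3.75 and 4.6 CPM and the 2 mg/kg libraries 6.79, 10.6, 11.0, 11.8, 12.0 and 13.0 CPM. The ob controls were 2.52, 2.84, 2.94, 3.04, 3.63 and 4.26 CPM and the 2 mg/kg libraries 6.95, 7.25, 9.98, 12.5, 13.2 and 15.7 CPM. Neither pair of groups overlapped. The log2 difference was 1.62 in b6j (SE 0.28, edgeR adjusted p = 3.38e-05) and 1.77 in ob (SE 0.28, adjusted p = 5.12e-06), where it was 1.88 (adjusted p = 9.1e-07) without replicate 5. At 0.5 mg/kg every ob library, at 4.47 to 8.27 CPM, was above every ob control, yet the difference of 0.83 (SE 0.28) had an adjusted p of 0.0861. It passed without ob 2 mg/kg replicate 5 (adjusted p = 0.0432) and without b6j 0.5 mg/kg replicate 5 (adjusted p = 0.0114).

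Cxcl9, a second Cxcr3 ligand that depends on interferon-gamma, was not called in any comparison. Its group means were 1.31 to 2.58 CPM. The highest mean, in b6j at 0.5 mg/kg, rested on replicate 5 at 8.9 CPM beside 1.01 to 1.64 CPM in the other 5 libraries. The same library held 12.2 CPM of Cxcl10, beside 2.01 to 4.86 CPM in the others. Its 14 interferon response genes summed to 259 CPM, against a group median of 160 CPM. In ob at 2 mg/kg Cxcl9 was listed at 0 in replicate 5 and at 0.911 to 3.83 CPM in the others.

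Ccl5, an attractant of T cells and monocytes that T cells and other cells make, rose in ob kidneys at 2 mg/kg. The untreated libraries held 0.474, 1.04, 1.12, 1.39, 1.42 and 1.52 CPM and the treated ones 1.58, 1.74, 1.96, 2.45, 2.78 and 3.1 CPM, without overlap. The log2 difference was 0.97 (SE 0.23, edgeR adjusted p = 0.0013), and 1.05 (adjusted p = 0.00059) without replicate 5. In b6j kidneys it was -0.09 (SE 0.23, adjusted p = 0.827), with group means of 1.7 to 1.82 CPM. The untreated ob mean was 1.16 CPM against 1.82 CPM in untreated b6j, with overlapping groups. That difference of -0.64 was not called (edgeR adjusted p = 0.0592). It passed with DESeq2 (adjusted p = 0.0389) and when some single libraries were left out. It did not pass with limma-voom or with the compared groups alone. At 2 mg/kg the genotypes differed by 0.42 (edgeR adjusted p = 0.223). The test of the difference between the genotypes' responses gave 1.06 (SE 0.33, adjusted p = 0.0823), which missed the threshold. It passed without ob 2 mg/kg replicate 5 (1.14, adjusted p = 0.0401) and without b6j control replicate 5 (1.2, adjusted p = 0.0465).

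Cxcl16, a membrane-bound ligand of Cxcr6 that is shed by Adam10, was higher in ob than in b6j kidneys. Untreated b6j libraries held 22.3, 26.5, 26.8, 29.5, 30.7 and 32.4 CPM and untreated ob libraries 35.9, 36.5, 39.5, 40.2, 40.7 and 42.1 CPM. The groups did not overlap, and the log2 difference was 0.48 (SE 0.12, edgeR adjusted p = 0.00431). At 0.5 mg/kg it was 0.49 (SE 0.12, adjusted p = 0.00583), again without overlap. At 2 mg/kg the difference was 0.28 (adjusted p = 0.0998), and without ob replicate 5, the lowest of that group at 27.1 CPM, it was 0.4 (adjusted p = 0.00431). Within b6j, 2 mg/kg was above control by 0.34 (SE 0.12, adjusted p = 0.0338). That call was lost when any 1 of 5 libraries was left out, as low as 0.26 (adjusted p = 0.115) without b6j 2 mg/kg replicate 2. Cxcl16 overlaps Zmynd15 and Cxcl10 overlaps Art3, each on the opposite strand, and the counting did not use strand, so reads in the shared bases cannot be assigned to either.

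Cxcl12, the ligand of Cxcr4 and a product of stromal and endothelial cells, had the highest total count of the 10. It was 213, 226, 252, 257, 270 and 291 CPM in untreated ob kidneys and 28.8, 161, 179, 197, 206 and 212 CPM at 2 mg/kg. Every treated library was below every control. The log2 difference was -0.62 (SE 0.23, edgeR adjusted p = 0.0346), and -0.39 (adjusted p = 0.0164) without replicate 5, a value more than 1.5 times smaller. The call was lost when any 1 of 5 other libraries was left out, with adjusted p up to 0.0737, and when only the ob groups compared were fitted (adjusted p = 0.206). All 6 endothelial markers tested were called lower in the same comparison, beside 18.0% of all genes, with a median summed level of 343 CPM against 509 CPM. Without replicate 5, 4 of the 6 endothelial markers were called lower, and the median of their log2 differences moved from -0.55 to -0.45. Stromal markers were mixed, with 2 of 6 called higher, beside 20.4% of all genes, and 0 lower (median 0.15). The counts were the same without replicate 5 (median 0.3). From control to 2 mg/kg the ob means rose most for Col3a1 (21.5 to 55.2 CPM) and Col1a1 (15.2 to 35.0). Dcn (38.4 to 46.2) and Pdgfra (48.3 to 49.8) were slightly higher, and Pdgfrb (46.8 to 45.4) and Acta2 (39.3 to 34.0) lower. The fall was not particular to endothelium: 5 of 6 distal nephron and 4 of 4 podocyte markers were called lower, and 3 and 4 without replicate 5. The part of these cell types in the Cxcl12 difference was not tested. In b6j at 2 mg/kg Cxcl12 differed by -0.11 (SE 0.23, adjusted p = 0.798).

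Cxcl14, an epithelial and stromal chemokine, and Cx3cl1, the membrane-bound ligand of Cx3cr1, were not called in any comparison. Cxcl14 averaged 21.3 to 29.1 CPM in the 6 groups. At 2 mg/kg it was 23.7 to 33.4 CPM in b6j against 15.1 to 25.6 CPM in controls (log2 0.37, SE 0.24, adjusted p = 0.292). In ob it was 24.5 to 31.7 CPM in 5 libraries and 3.55 CPM in replicate 5. Without that library, which widens the fitted spread, the b6j difference passed (adjusted p = 0.0218), as did that of 0.45 between untreated ob and b6j (adjusted p = 0.00797, against 0.236 with it). Cx3cl1 varied least, from a mean of 82.0 to 93.8 CPM, and its largest fitted difference was 0.15 (SE 0.09) in b6j at 2 mg/kg. Without replicate 5 it was called higher in ob from 0.5 to 2 mg/kg (0.2, adjusted p = 0.032).

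**Figure D3:**
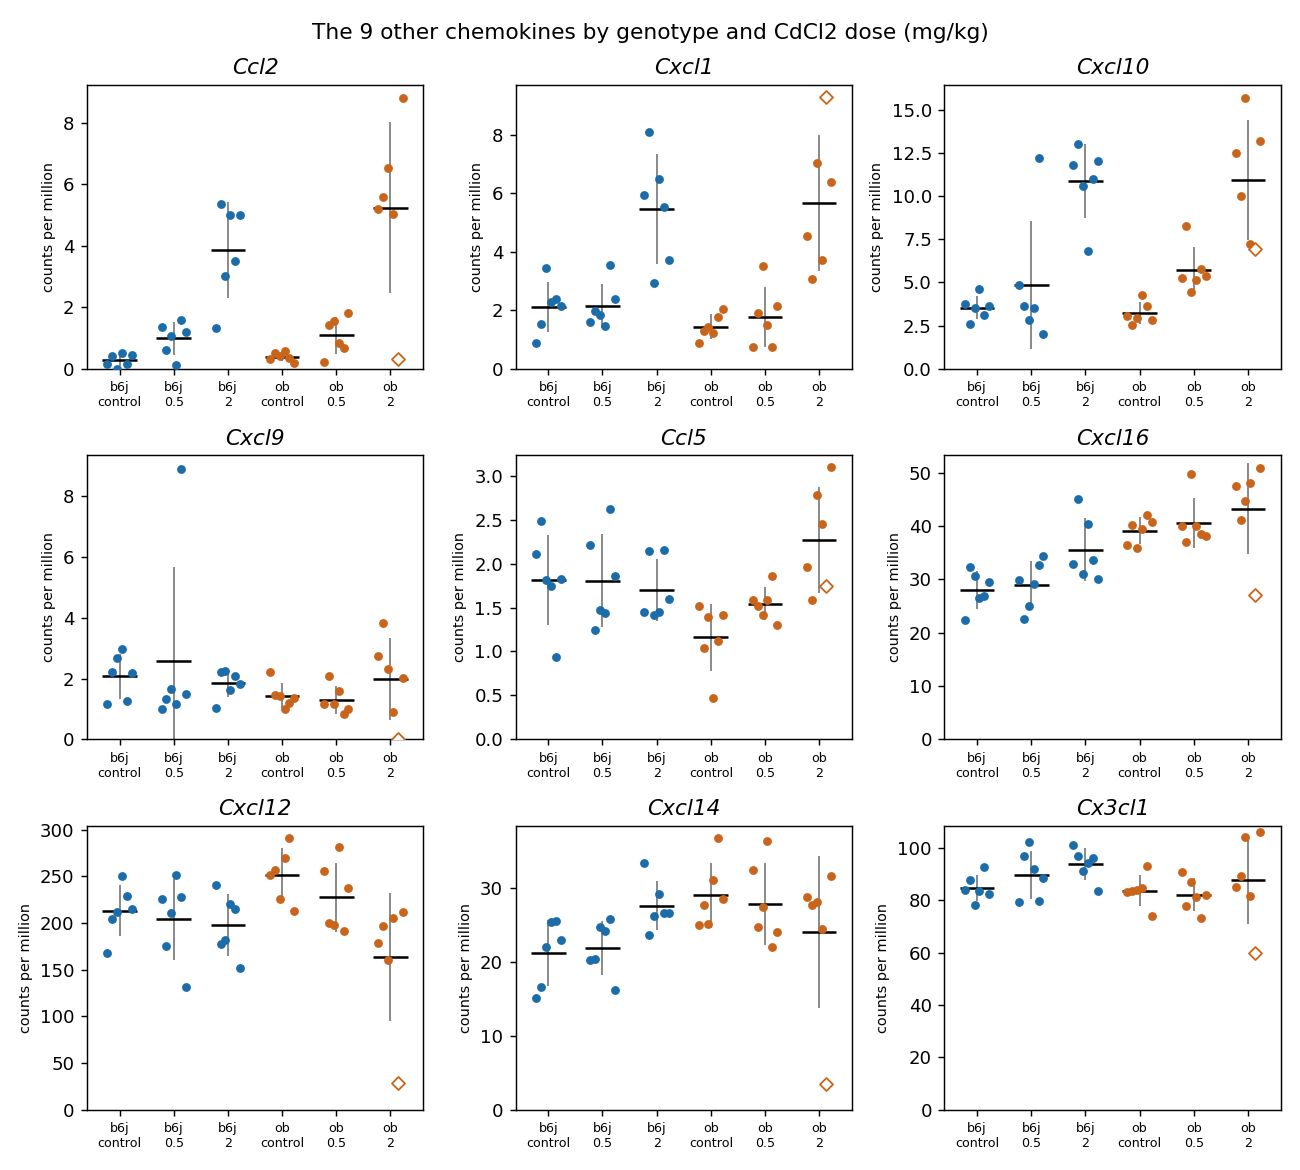
CPM (vertical axes, each from 0) of the 9 other chemokines in each library by genotype and CdCl2 dose; black lines are means, grey bars 1 SD, and the open diamond is ob 2 mg/kg replicate 5. Ccl2, Cxcl1 and Cxcl10 stand higher at 2 mg/kg in both genotypes, while Cx3cl1 stays between group means of 82.0 and 93.8 CPM.

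Counting the 9 members other than Ccl28, 4 were called in b6j at 2 mg/kg, all higher (Ccl2, Cxcl10, Cxcl16 and Cxcl1, whose call is in doubt), beside 23.7% of all 18180 genes called in that comparison and 12.3% called higher. Of the same 9 in ob at 2 mg/kg, 5 were called, beside 38.4% of all genes. Ccl2, Cxcl1, Cxcl10 and Ccl5 were higher (20.4% of genes were) and Cxcl12 was lower (18.0%). Without replicate 5 there were 6, with Cxcl16 added (0.26, adjusted p = 0.0375). From 0.5 to 2 mg/kg, Ccl2, Cxcl1 and Cxcl10 were called higher in b6j, beside 17.3% of genes called and 8.78% called higher. The same 3 were called higher in ob, beside 29.7% and 15.2%, and 5 without replicate 5, with Ccl5 and Cx3cl1 added. At 0.5 mg/kg against control edgeR called 0 members in b6j (0.325% of genes) and 0 in ob (4.28%). Before adjustment, 1 member (Ccl2) was under 0.05 in b6j and 2 (Ccl2 and Cxcl10) in ob, where DESeq2 and limma-voom each called 1, Cxcl10. Between the genotypes 1 member, Cxcl16, was called higher in untreated ob mice, beside 15.5% of genes called and 6.6% called higher, and at 0.5 mg/kg, beside 9.64% and 4.58%. At 2 mg/kg 0 were called (16.4% of genes), with 1 (Cxcl16) under 0.05 before adjustment.

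No member other than Ccl28, which was not tested there, passed the test of a different response in the 2 genotypes at 0.5 mg/kg (0.385% of all genes) or 2 mg/kg (2.07%). Before adjustment 1 member, Ccl5, was under 0.05 at 2 mg/kg and 0 at 0.5 mg/kg. For Ccl2 the difference of responses at 2 mg/kg was -0.06 (SE 0.73), for Cxcl10 0.15 (SE 0.38) and for Cxcl1 0.61 (SE 0.46). The standard errors leave room for sizeable differences in either direction. For Ccl28 the fitted difference of responses was 1.4 (SE 0.41) at 0.5 mg/kg and 2.67 (SE 0.42) at 2 mg/kg, as description.

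**Figure D4:**
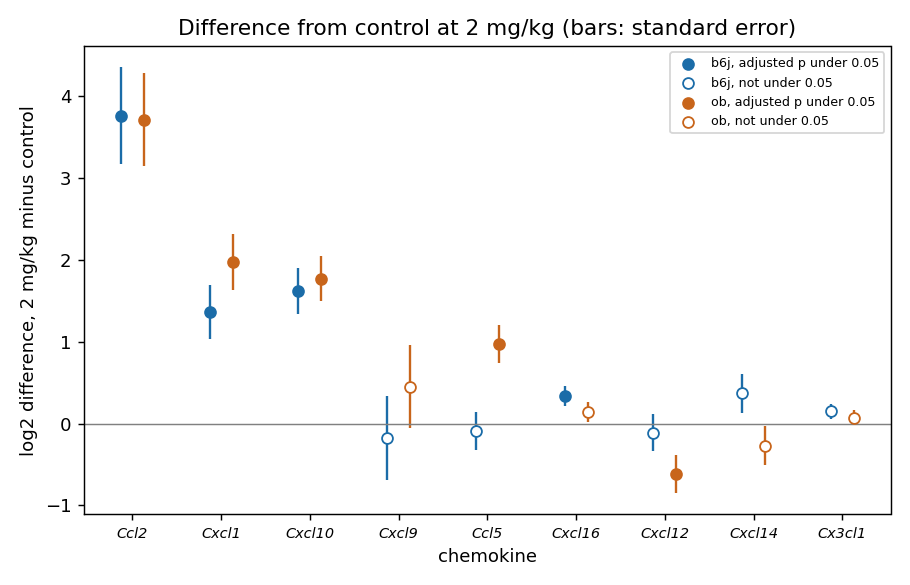
Fitted log2 difference between 2 mg/kg CdCl2 and control (vertical axis, bars 1 standard error) for 9 chemokines in b6j (blue) and ob (orange) kidneys; filled points have an adjusted p under 0.05. Ccl2 stands highest, at 3.76 and 3.71, from controls with few counts that leave the size uncertain. Ccl5 and Cxcl12 are filled in ob alone, a contrast between genotypes that did not pass its own test.

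Per kilobase of exon, Cxcl12, Cx3cl1, Cxcl14 and Cxcl16 had the highest means in every group. Cxcl12 averaged 20.1 to 30.8 CPM per kilobase in the 6 groups, Cx3cl1 20.9 to 23.9, Cxcl14 11.7 to 15.9 and Cxcl16 9.28 to 14.3. The other members were Ccl28 (0.418 to 7.52), Cxcl10 (1.42 to 4.85), Ccl2 (0.247 to 4.61), Cxcl1 (0.77 to 3.02), Ccl5 (1.21 to 2.36) and Cxcl9 (0.433 to 0.857). In untreated b6j kidneys Ccl28, at 7.52, lay nearer to Cxcl16 at 9.28 than to the next below, Ccl5 at 1.89. In untreated ob kidneys Ccl28 lay level with Cxcl9, at 0.476 and 0.477.

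Some of the other chemokines were also called higher at 2 mg/kg. Of 28 listed, 20 could be tested, and in b6j 8 were called higher, 2 lower (Ccl27a and Cxcl3) and 10 neither way, beside 12.3% of all genes called higher (median log2 0.65, beside 0.017 over all genes). Without ob 2 mg/kg replicate 5, which enters the common fit, 9 were called higher and 3 lower in b6j. With it, the 3 with the smallest edgeR p were Ccl6 (0.91, adjusted p = 0.0003), Ccl9 (1.26, adjusted p = 0.00183) and Ccl8 (2.63, adjusted p = 0.00268), all CC chemokines. Ccl8 stood at 0 to 0.218 CPM in the b6j controls, near the floor, so the size of its difference is uncertain. In ob at 2 mg/kg 12 were called higher, Cxcl3 and Cxcl5 among them, and 1 lower, beside 20.4% of all genes called higher (median 0.93, beside 0.011). Without replicate 5 there were 13 higher and 1 lower (median 1.16). With all libraries, the smallest edgeR p-values in ob were those of Ccl9 (2.16, adjusted p = 9.13e-07), Cxcl2 (4.42, adjusted p = 6.39e-06) and Ccl25 (0.76, adjusted p = 7.28e-05). Cxcl2 stood at 0 to 0.29 CPM in the ob controls, mostly at or under the floor, and its highest treated library was replicate 5 at 4.77 CPM. The size of its difference is therefore uncertain, and the doubt stated above on which reads were counted holds for it too. Ccl27a, which shares Ccr10 with Ccl28, was called lower in both genotypes (-0.53 and -0.63, adjusted p = 0.00643 and 0.000768). It was named after its values were seen.

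Of 18 chemokine receptors, 12 could be tested, with median log2 differences of 0.33 in b6j and 0.65 in ob at 2 mg/kg. In b6j at 2 mg/kg 3 were called higher, with or without ob replicate 5, beside 12.3% of all genes. Among them were Ccr2 (0.78, edgeR adjusted p = 0.0285) and Cx3cr1 (1.06, adjusted p = 0.0311). In ob 3 were called higher, beside 20.4% of all genes, a count near that share. Among them were Ccr1 (2.17, adjusted p = 0.000433) and Ccr2 (1.11, adjusted p = 0.00125). Without replicate 5 there were 5 (median 0.87). Of the proteases that shed or trim chemokines, Dpp4 rose by 0.54 in both genotypes (adjusted p = 0.00199 and 0.00107) and Adam10 by 0.16 and 0.28 (adjusted p = 0.0495 and 0.000292).

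Genes of the pathways that induce chemokines moved at the same dose, where 12.3% of all genes were called higher in b6j and 20.4% in ob. Of 10 NF-kB feedback and inflammatory genes tested, 7 were called higher in b6j, led by Nfkb2 (1.28), Relb (1.19) and Icam1 (0.99), and 6 in ob, led by Nfkb2 (1.19), Relb (1.06) and Tnfaip3 (1.0). The median over the 10 was 0.89 and 0.96. Without ob replicate 5 the counts were 8 in b6j (median 0.89) and 7 in ob (median 0.94). Of 14 interferon response genes, 9 were called higher in b6j (median over the list 0.7), among them Irf1 (0.94) and Ifit2 (0.87). In ob 11 were called higher (median 0.83), among them Ifit2 (1.32) and Mx1 (2.34). Without ob replicate 5 the counts were 10 in b6j (median 0.7) and 11 in ob (median 0.92). Macrophage markers were called higher for 8 of 10 in b6j and 9 of 10 in ob, with 1 lower in ob. Without ob replicate 5 there were 9 higher in b6j, and in ob again 9 higher and 1 lower. Their summed level had medians of 169 and 247 CPM in b6j at control and 2 mg/kg and 160 and 272 CPM in ob. None of 3 testable neutrophil markers was called in either genotype, with or without ob replicate 5. The sums of the neutrophil markers were 1.55 to 8.35 CPM over the 36 libraries. The part of these cells in the chemokine levels was not tested.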

How the data were processed

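Raw read counts per gene were deposited by the authors as 1 file per library. Per the file headers, counting was by featureCounts 1.4.6-p2 over exons by gene, unstranded, with Ensembl release 96 on GRCm38. Trimmomatic and STAR are named in the submitters' processing notes, with no versions. A joined table with 36 columns was not used, because its column names match no label. It was set aside only after its columns had been matched through file names. The outcome for Cxcl1, Cxcl2, Cxcl3, Cxcl5 and Ppbp had then been seen. The report states that outcome as a doubt, with no value from it.

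Library totals were 26783936 to 37244058 counts. edgeR 4.0.16 (R 4.3.3) fitted 1 mean per group over 36 libraries after filterByExpr (18180 genes) with TMM scaling (0.892 to 1.122). Quasi-likelihood p-values were adjusted over all 18180 genes (Benjamini-Hochberg), and "called" means an adjusted p under 0.05. Levels are TMM-scaled CPM. SE is the log2 difference divided by the root of the F statistic. The script was tested on simulated data. Alternatives were DESeq2 1.42.0, limma 3.58.1 voom with sample weights, RLE scaling, other filters, the compared groups alone, a replicate block and each library left out. Members and lists were chosen with earlier results of these data known. Named genes were the 10 members and, from other lists, up to 3 called genes with the smallest p, or where none was called up to 2 with the highest mean. Named outside this rule, after their values were seen, were Ccl27a, Cxcl3, Cxcl5, Ppbp, Ccr10, Slc34a1, Slc5a12, Slc5a2, Cyp7b1, Gusb, Ighm, Jchain and Ms4a1. The stromal markers were also named after their values were seen. Gene identifiers matched GENCODE M21 for 55536 of 55536 genes. A receptor counted among the chemokine receptors is not reported here by name.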

Additional observations from a re-analysis of the deposited data

Results flagged for a closer look

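Within groups of 6, single libraries lay far from the other 5 for 7 of 60 combinations of member and group. The rule used flags about 5% of groups of independent, normally distributed values. These CPM values may not be normal and some flags share a library, so that share is not a measure of chance here. In b6j at 0.5 mg/kg, replicate 5 was the highest for Cxcl9 at 8.9 CPM (next 1.64) and for Cxcl10 at 12.2 CPM (next 4.86). In ob at 2 mg/kg, replicate 5 was the lowest for Cxcl12 at 28.8 CPM (next 161) and for Cxcl14 at 3.55 CPM (next 24.5). Cxcl9 stood at 2.21 CPM in untreated ob replicate 1 (next 1.45). Cxcl10 stood at 8.27 CPM in ob at 0.5 mg/kg replicate 2 (next 5.75), whose interferon response genes summed to 264 CPM against a group median of 179 CPM. Cxcl16 stood at 49.7 CPM in ob at 0.5 mg/kg replicate 3 (next 40.0).

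The responses to 2 mg/kg differed between the genotypes for Cxcl5 (edgeR adjusted p = 0.0115) and Cxcl3 (adjusted p = 0.0201). Both rest on the untreated b6j libraries described above, where 4 of 6 held 1.02 to 3.45 CPM of Cxcl3 and 2 held 0, and on untreated ob libraries at 0 for Cxcl3, so they are given as values only, with the doubt stated above on which reads of these genes were counted.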

How the results depend on the processing

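For untreated ob against b6j the count of members called, 1, became 2 with DESeq2, 2 with limma-voom and 3 with the compared groups alone, and ranged from 1 to 3 leaving out one library. For ob against b6j at 2 mg/kg it was 0, 1 with limma-voom, and 0 to 1 leaving one out; at 0.5 mg/kg it was 1, and 1 to 2 leaving one out. For ob at 0.5 mg/kg it was 0, 1 with DESeq2, 1 with limma-voom, 2 with the compared groups alone, and 0 to 2 leaving one out. For ob from 0.5 to 2 mg/kg it was 3, and 3 to 5 leaving one out. For the genotype difference in response at 2 mg/kg it was 0, 1 with DESeq2 (Ccl5), and 0 to 1 leaving one out. The count for b6j at 2 mg/kg was 3 to 5 and for ob at 2 mg/kg 4 to 6 leaving one out. The cause was not tested.

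The labels do not pair the samples by number. Same-numbered libraries had deviations correlated at -0.168 to 0.162, which cannot show whether they share a batch. With the replicate block the counts were 1, 1 and 0 between genotypes at control, 0.5 and 2 mg/kg, 0, 4 and 3 within b6j, and 0, 5 and 3 within ob. Leaving out one library, Ccl28 in b6j ranged from -1.71 to -1.28 at 0.5 mg/kg and from -2.99 to -2.57 at 2 mg/kg, Cxcl12 in ob at 2 mg/kg from -0.69 to -0.39, and Cxcl16 in b6j at 2 mg/kg from 0.26 to 0.39. Depth limits Ccl2 in the controls, where a group median was 9 counts.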
